A study of Homo sapiens with 61 samples.

Results

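H3K4me3 was examined at 44 homeobox genes outside the HOX clusters, which were taken from a fixed list of developmental transcription factors and make up 44 of 19970 protein-coding genes with an annotated start site. The marks were measured by chromatin immunoprecipitation sequencing in U2OS cells, a human osteosarcoma line, that were wild type (WT) or deficient in the histone methyltransferase ASH1L (ASH1L-/-). Cells were left without UV or were irradiated with UV-C at 20 J/m2 and collected 1 h or 3 h later. Each of the 6 groups had 3 H3K4me3 libraries, 18 in all, and 19 XPC libraries of the same genotypes and times served as a second readout. The ASH1L-/- cells carry CRISPR deletions in the ASH1L gene and were grown from isolated colonies, so that a difference between the genotypes cannot be told apart from a difference between this line and its parent. No further genetic change or agent differs between the groups by the labels, and all cells shared the U2OS background.

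The peak lists held 72984 to 142688 H3K4me3 peaks per library, which covered 70.1 to 132 Mb. Read depth is not part of these lists. Covered length in the sum over the genome was higher after UV in every irradiated WT library than in every WT library without UV. In ASH1L-/- cells the totals overlapped, with 74.3 to 91.7 Mb without UV and 79.4 to 107.5 Mb after UV. Total cover enters the counts of rises given here in both genotypes. A promoter is defined here as the start site plus and minus 2 kb, a window of 4 kb, and the flank as the next 10 kb on each side, 20 kb in all. The value given for a gene is the length in kb of a window that was covered by peaks in a library. Of the marker promoters, 12 of 15 mesenchymal and osteoblast genes carried a peak in all 18 libraries (summed cover 34.2 to 38.0 kb per library), while ALPL, TWIST1 and COL1A2 carried none. Of 10 blood markers none did so (0 to 0.598 kb), of 8 hepatocyte and gut markers none (0 to 2.13 kb), of 12 epithelial markers 4 (4.87 to 9.70 kb), and of 12 neuronal markers 11 (17.1 to 25.1 kb).

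Homeobox genes encode transcription factors that bind DNA through a homeodomain and set the identity of tissues in the embryo. In differentiated cells many of them are held by Polycomb complexes or in a bivalent state, in which H3K4me3, the mark of active and poised start sites, lies beside the repressive H3K27me3 over CpG-rich DNA. Trithorax-group proteins, of which ASH1L is one, oppose Polycomb at such genes. The 44 genes comprise SIX2 to SIX6, members of the DLX, LIM (LHX and ISL), IRX, MSX and BARX, GSX and VAX, and PITX families, and a group of head and brain genes (OTX, EMX, GBX and EN).

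Promoter peaks were found in all 18 libraries at 25 of the 44 genes, in some libraries at 10 and in none at 9. Among all 19970 genes the shares were 66.8% in all libraries, 9.77% in some and 23.4% in none, against 56.8%, 22.7% and 20.5% of the homeobox genes. The homeobox genes thus had a larger part in the class that was marked in some libraries and not in others. With peaks of at least 5-fold enrichment over input alone, 4 of the 44 (9.09%) were marked in all libraries, against 33.8% of all genes. The share of all genes with such a promoter peak differed between the genotypes. Without UV it was 49.3% to 53.4% in ASH1L-/- and 55.7% to 64.0% in WT libraries. At 1 h it was 59.2% to 66.0% and 64.9% to 66.7%, which overlap, and at 3 h 46.5% to 55.4% and 62.9% to 64.2%. In bulk chromatin a mark in fewer cells and a lower mark per cell cannot be told apart. In WT cells without UV 26 to 29 of the 44 promoters carried a peak, 31 to 33 at 1 h and 29 to 31 at 3 h. For ASH1L-/- cells the numbers were 26 to 27 without UV, 26 to 28 at 1 h and 26 to 27 at 3 h. The irradiated WT libraries did not overlap with the irradiated ASH1L-/- libraries, whereas the libraries without UV did. Over all genes the share with a promoter peak was 71.3% to 72.4% in irradiated WT libraries and 69.7% to 71.1% in irradiated ASH1L-/- libraries, which also do not overlap.

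**Figure D1:**
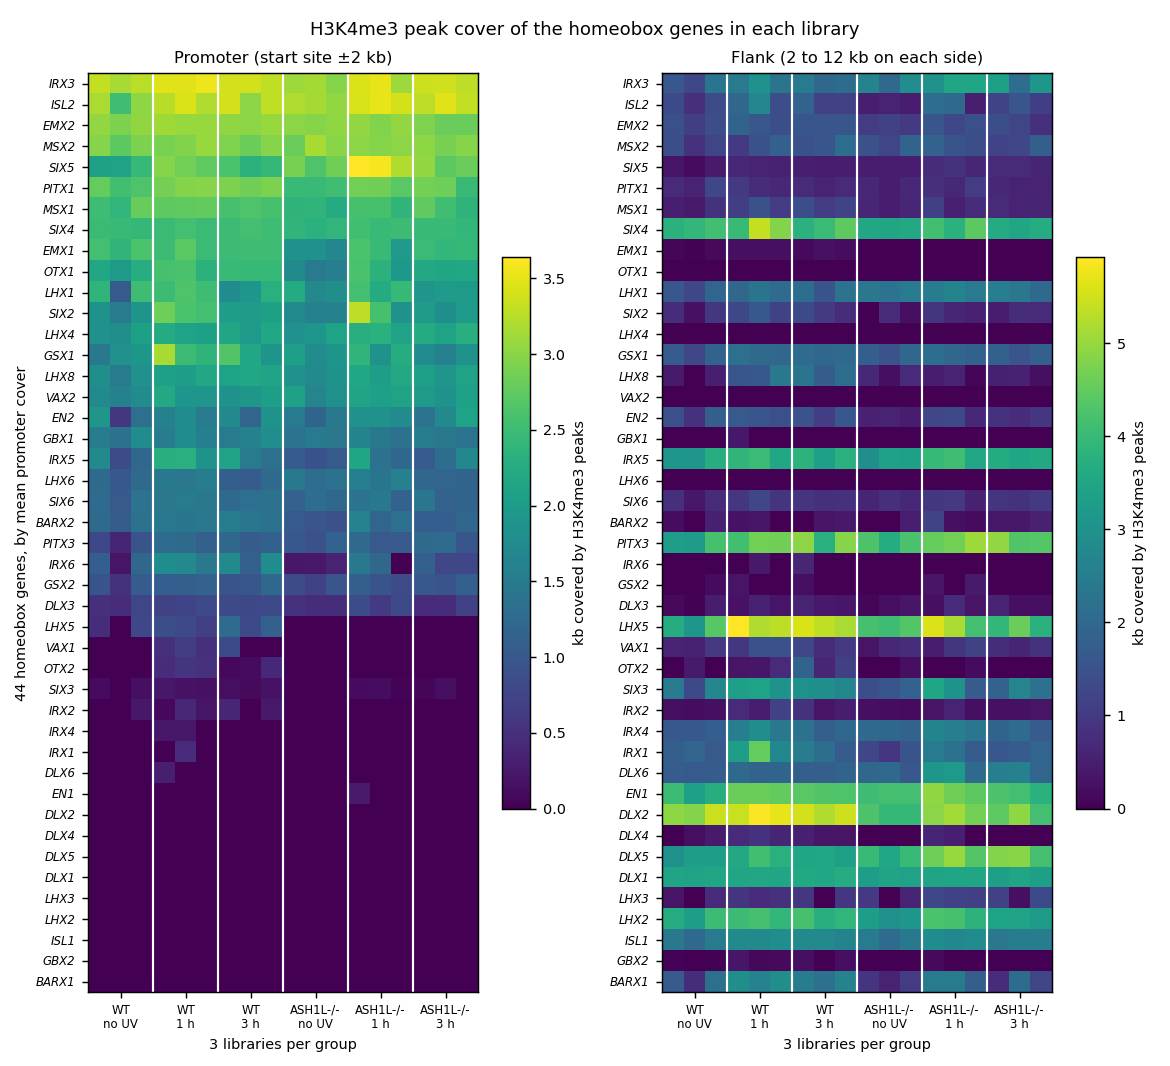
Peak cover of the promoter (left) and flank (right) of the 44 homeobox genes in kb, with a column for each of the 18 libraries and genes ordered by mean promoter cover. The upper promoters are marked in every library, LHX5, VAX1, OTX2 and IRX2 are marked in WT libraries alone, and several of the lowest genes, DLX2, DLX5, DLX1 and LHX2 among them, have empty promoters beside covered flanks.

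The longest promoter cover was at IRX3, ISL2, EMX2 and MSX2. IRX3, an Iroquois factor of neural and limb patterning, had a mean of 3.31 kb over the 18 libraries, from 2.98 to 3.54 kb. ISL2, a LIM factor of motor neurons, had 3.23 kb (2.52 to 3.51 kb), and EMX2, a gene of forebrain and urogenital development, had 3.00 kb (2.81 to 3.12 kb). MSX2, which acts in the skull and limb, had 2.95 kb (2.73 to 3.16 kb). At these genes the peak covered most of the window in every library. The shortest cover above 0 was at EN1, DLX6, IRX1 and IRX4. EN1, a gene of the midbrain and hindbrain border, had 0.260 kb in the first ASH1L-/- library at 1 h and nothing in the other 17. DLX6 had 0.307 kb in the first WT library at 1 h, IRX1 0.447 kb in the second WT library at 1 h, and IRX4 0.230 and 0.231 kb in the first and second WT libraries at 1 h. The median over libraries of the highest fold enrichment over input was 10.1 at MSX2, 9.53 at EMX2 and 8.37 at SIX4.

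The marked promoter windows were spread unevenly over the families. All 5 genes from SIX2 to SIX6, partners of the EYA proteins in eye, kidney and muscle, had a peak in some library, and 4 of them in all 18. SIX3, the other, had at most 0.230 kb, at the upstream edge of its window. Both PITX genes, of which PITX1 directs hindlimb identity, were marked in all 18 libraries. Of the 9 LIM genes 5 were marked in all libraries, 1 in some (LHX5) and 3 in none (LHX2, LHX3 and ISL1). Of the 8 head and brain genes 5 were marked in all libraries (OTX1, EMX1, EMX2, GBX1 and EN2), 2 in some (OTX2 and EN1) and 1 in none (GBX2). The 6 DLX genes, which pattern the forebrain, jaw and skeleton, had few marked promoter windows. DLX3 had a peak in its window in all 18 libraries, DLX6 in 1, and DLX1, DLX2, DLX4 and DLX5 in none. At DLX3 the bases covered in all libraries lay at -2024 to -1555 bp from its start. They held the start of a long noncoding RNA, and the DLX3 start itself was empty. The IRX genes lie in 2 clusters of 3. On chromosome 16, IRX3 and IRX5 were marked in all 18 libraries and IRX6 in 17. On chromosome 5, IRX2 was marked in 6 libraries, IRX4 in 2 and IRX1 in 1.

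Of the 9 genes with an empty promoter in every library, 6, namely DLX1, DLX2, DLX5, LHX2, ISL1 and BARX1, had peaks in the flank in all 18 libraries. Over all genes 5.16% met this rule, and among the 4675 genes with no promoter peak 22.1% did. At DLX2, a gene of interneuron and jaw development, the mean flank cover was 4.93 kb, from 3.94 to 5.88 kb, with 0 kb at the start. EN1 had 4.25 kb in the flank (3.38 to 4.94 kb), DLX5, a factor of bone formation, 3.94 kb (2.98 to 5.00 kb), LHX2, a regulator of eye and cortex, 3.71 kb (2.96 to 4.24 kb) and ISL1, a marker of motor neurons and heart progenitors, 2.58 kb (2.03 to 2.92 kb). These genes thus had long marked stretches near their starts in every library of both genotypes.

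Bases covered in all 18 libraries and at least 200 bp long are called core regions here. Such regions were present in the promoter window of 25 genes, and over the start site itself at 12. In the flanks there were 33 core regions, of which 14 were intergenic, 13 overlapped an exon and 6 an intron, and 7 held an annotated start of a gene of any type. Their median length was 769 bp. Between DLX1 and DLX2 the bases from 172094210 to 172097713 of chromosome 2 (hg38), 3504 bp of intergenic DNA, were covered in every library, with a median highest enrichment of 9.93. This stretch lies in the flank of both genes and is counted in both. At DLX5 and DLX6 the intergenic bases 97016225 to 97018131 of chromosome 7 were covered in all libraries, and 1328 bp of this stretch also lie in the DLX6 flank. At ISL1 a core region of 1271 bp lay upstream, at -5013 to -3743 bp from the start of ISL1, over the start of the long noncoding RNA ISL1-DT, with a median enrichment of 12.2. At EN1 a core region of 2271 bp began 4423 bp downstream of the start used here and overlapped an exon of EN1. At IRX4 the core region of 1501 bp, at -4463 to -2963 bp from the start, contained another annotated start of IRX4 itself, so its nearly empty promoter depends on which start is used.

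**Figure D2:**
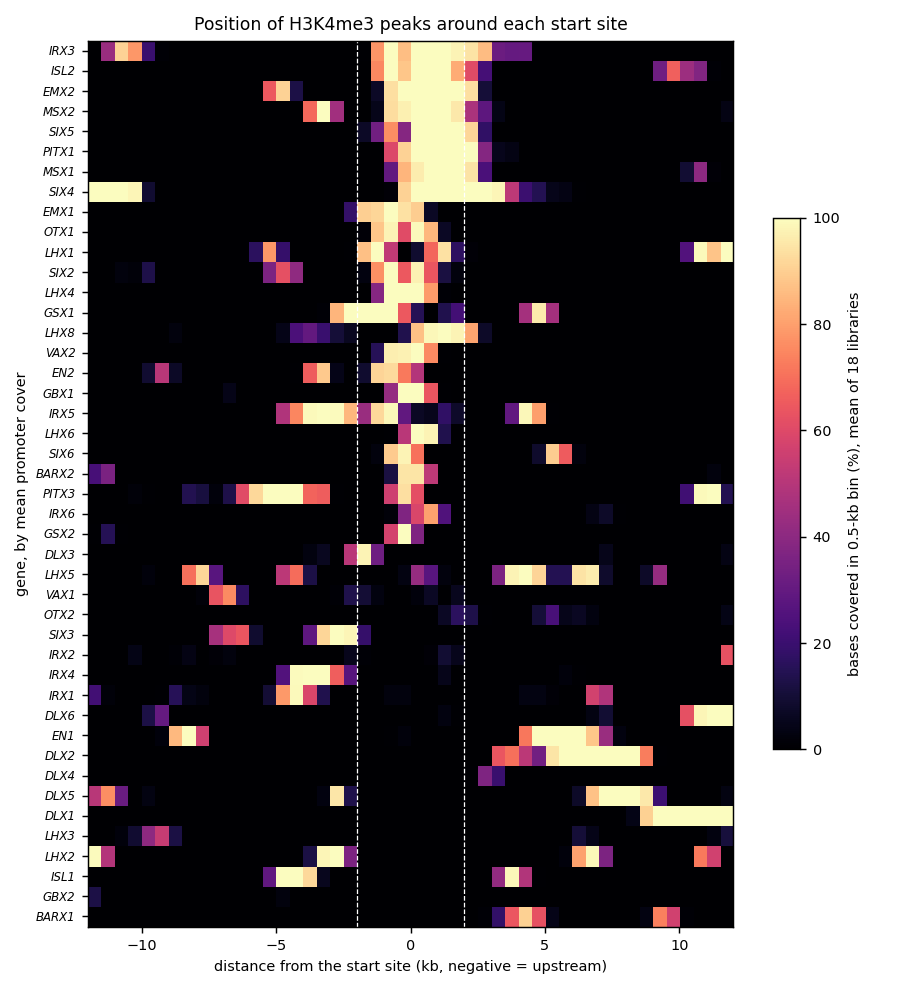
Percent of bases covered by H3K4me3 peaks in bins of 0.5 kb within 12 kb of the start site of each homeobox gene, as the mean of the 18 libraries, with genes ordered by mean promoter cover and the promoter window between dashed lines. The upper genes carry their cover over the start, while DLX2, DLX1, EN1, LHX2 and ISL1 carry it several kb away.

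The average position of the mark differed from that of other genes. In the bin centred 250 bp downstream of the start 45.8% of bases were covered at the homeobox genes and 64.45% at all other genes, as means of the 18 libraries. In the bin centred 3250 bp upstream the order was the reverse, with 15.8% and 5.81%. Of all covered bases within 12 kb, 43.0% lay in the promoter window at the homeobox genes and 57.0% at all genes, and the medians over genes were 51.3% and 64.7%. These are descriptions of 1 set of libraries without a test. Another protein-coding gene started in the flank of 3 of the 44 genes only (SIX4, LHX1 and PITX3, next to MNAT1, AATF and GBF1), and in the promoter window of none. Starts of other genes of any type, mostly noncoding RNAs, lay in the promoter window of 22.

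**Figure D3:**
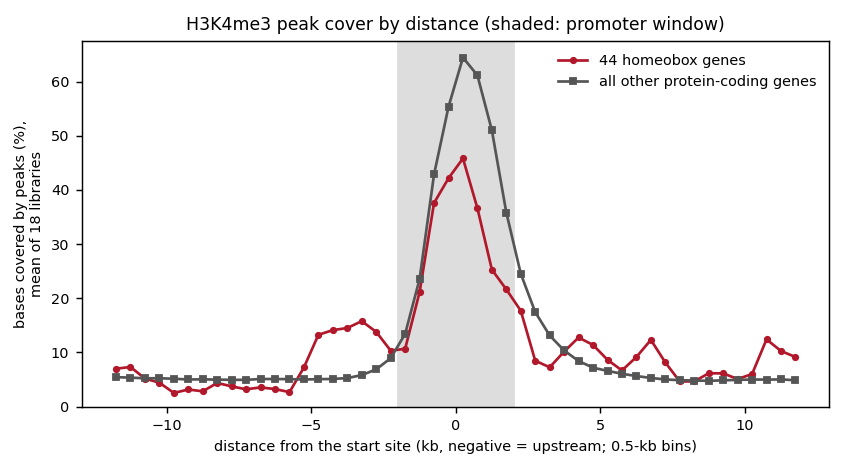
Percent of bases covered by H3K4me3 peaks against distance from the start site in bins of 0.5 kb, as the mean of the 18 libraries, for the 44 homeobox genes and for all other protein-coding genes. The homeobox genes have a lower top over the start, 45.8% in the bin just downstream, and a shoulder upstream that reaches 15.8%.

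CpG-rich DNA is where H3K4me3 is commonly found, and the homeobox windows were rich in it whether or not they were marked. The ratio of observed to expected CpG in the 4 kb window had a median of 0.702 at the 25 genes marked in all libraries, 0.724 at the 10 marked in some and 0.685 at the 9 marked in none. Over all genes it was 0.571 at promoters marked in all libraries and 0.26 at promoters marked in none. The empty and the marked homeobox promoters had overlapping ratios, 0.477 to 0.838 and 0.463 to 0.875. RefSeq promoter sequences of GRCh38.p14, from 250 bases before to 50 after the start, matched 29 of the 44 genes. At LHX8, IRX4 and LHX6 the RefSeq start lay 5954, 4020 and 524 bp from the start used for the windows. The 29 sequences, these included, had a median of 30 CpG per 300 bases, against 22 over 15316 promoters. The sequence TAATTA, a typical homeodomain binding core that reads the same on both strands, was present in 2 of the 29, EMX2 and MSX2, and in 3.28% of all promoters. The 6 promoters below run from genes marked in all 18 libraries (EMX2 and OTX1) over genes marked in a few WT libraries (OTX2, VAX1 and IRX1) to a gene marked in none (DLX2), with every CpG in capitals (98.1% of all promoters hold at least 1 CG). They are written 5′ to 3′ on the strand of the gene and show that marked and empty starts both hold many CpG, OTX2 fewest, with 21, 34, 9, 37, 38 and 30 CpG in that order.
EMX2 (chr10:117542496-117542795, plus strand): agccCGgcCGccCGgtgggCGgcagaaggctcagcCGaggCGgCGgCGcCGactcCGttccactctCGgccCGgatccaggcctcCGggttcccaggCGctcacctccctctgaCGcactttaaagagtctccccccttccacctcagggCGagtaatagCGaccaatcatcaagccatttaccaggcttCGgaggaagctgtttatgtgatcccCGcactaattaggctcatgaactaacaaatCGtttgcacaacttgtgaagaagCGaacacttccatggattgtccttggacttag
OTX1 (chr2:63050580-63050879, plus strand): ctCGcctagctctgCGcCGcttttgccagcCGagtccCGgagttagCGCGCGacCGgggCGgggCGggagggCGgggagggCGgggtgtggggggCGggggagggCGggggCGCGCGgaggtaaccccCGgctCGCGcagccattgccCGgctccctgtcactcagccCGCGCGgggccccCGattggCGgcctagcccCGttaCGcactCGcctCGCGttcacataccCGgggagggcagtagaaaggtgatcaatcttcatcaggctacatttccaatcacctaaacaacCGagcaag
OTX2 (chr14:56810430-56810729, minus strand): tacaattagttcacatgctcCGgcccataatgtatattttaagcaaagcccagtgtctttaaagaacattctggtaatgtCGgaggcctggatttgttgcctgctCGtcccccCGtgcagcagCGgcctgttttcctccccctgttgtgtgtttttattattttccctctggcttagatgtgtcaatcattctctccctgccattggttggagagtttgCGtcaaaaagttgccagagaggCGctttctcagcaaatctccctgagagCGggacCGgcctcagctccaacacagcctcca
VAX1 (chr10:117138221-117138520, minus strand): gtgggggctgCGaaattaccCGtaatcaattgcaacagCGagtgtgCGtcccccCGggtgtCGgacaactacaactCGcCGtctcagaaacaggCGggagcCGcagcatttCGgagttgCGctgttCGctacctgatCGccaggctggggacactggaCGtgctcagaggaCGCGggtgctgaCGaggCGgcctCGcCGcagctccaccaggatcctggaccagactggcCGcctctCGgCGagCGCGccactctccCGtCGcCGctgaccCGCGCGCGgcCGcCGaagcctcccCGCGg
IRX1 (chr5:3595582-3595881, plus strand): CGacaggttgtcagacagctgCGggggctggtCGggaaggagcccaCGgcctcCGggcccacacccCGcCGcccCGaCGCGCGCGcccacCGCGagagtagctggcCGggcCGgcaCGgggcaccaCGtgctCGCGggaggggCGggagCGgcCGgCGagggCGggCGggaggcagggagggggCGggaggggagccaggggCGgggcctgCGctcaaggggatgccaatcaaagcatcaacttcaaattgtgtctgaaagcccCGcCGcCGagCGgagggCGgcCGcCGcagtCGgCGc
DLX2 (chr2:172102851-172103150, minus strand): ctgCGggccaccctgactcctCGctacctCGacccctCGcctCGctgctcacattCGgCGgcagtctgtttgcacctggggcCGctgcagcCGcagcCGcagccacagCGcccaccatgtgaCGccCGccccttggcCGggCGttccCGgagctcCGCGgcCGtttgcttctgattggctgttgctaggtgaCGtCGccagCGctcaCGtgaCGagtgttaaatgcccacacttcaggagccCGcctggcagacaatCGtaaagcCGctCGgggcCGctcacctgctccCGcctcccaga

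Core regions away from the start were also rich in CpG, with a median ratio of 0.668 in the flanks and 0.762 in the promoter windows, and a GC content of 62.7% and 62.6%. The next lines print 2 core regions near genes whose own promoter was empty in every library, as plus-strand sequence of hg38 with CpG in capitals. The region upstream of DLX5 is intergenic and 275 bp long with 14 CpG, and the region downstream of BARX1, a gene of stomach and tooth development, is intergenic and 268 bp long with 8 CpG.
DLX5 upstream (chr7:97027498-97027772): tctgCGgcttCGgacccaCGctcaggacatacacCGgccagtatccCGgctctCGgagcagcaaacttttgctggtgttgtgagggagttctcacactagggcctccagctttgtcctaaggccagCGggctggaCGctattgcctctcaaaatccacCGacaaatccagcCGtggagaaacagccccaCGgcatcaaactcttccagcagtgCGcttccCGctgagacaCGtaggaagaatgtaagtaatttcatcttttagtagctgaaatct
BARX1 downstream (chr9:93950810-93951077): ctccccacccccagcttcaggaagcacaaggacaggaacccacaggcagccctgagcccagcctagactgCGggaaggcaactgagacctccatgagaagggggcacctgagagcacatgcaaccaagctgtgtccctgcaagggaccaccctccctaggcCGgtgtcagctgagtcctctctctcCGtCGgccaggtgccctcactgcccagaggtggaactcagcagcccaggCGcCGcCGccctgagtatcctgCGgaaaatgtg

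To ask how UV changed these marks, covered length after UV (1 h and 3 h together) was compared with that without UV in each genotype by limma over all windows covered in at least 3 libraries. Of the 44 promoters 31 passed this filter, since the 9 empty promoters and those of DLX6, EN1, IRX1 and IRX4 did not. In WT cells promoter cover rose at 14 of the 31 genes (45.2%) and fell at none, against 30.5% of the 14745 promoters tested that rose. The median change was 0.272 kb at the homeobox genes and 0.203 kb over all promoters. In ASH1L-/- cells 9 of 31 rose (29.0%) and none fell, against 24.0% of all, with medians of 0.180 and 0.174 kb. OTX2 and VAX1 passed the filter through irradiated WT libraries alone. Among promoters with a peak in a WT library without UV and in an irradiated one, a restriction chosen after seeing the data, 12 of 29 rose, beside 30.7% of all. The WT count of 14 depended on the libraries without UV. It was 2 when the second of them was left out, 7 without the first and 17 without the third. Without the first or second library at 1 h, or the first or the third at 3 h, it was 8 to 9. The ASH1L-/- count was 2 without either the first or the second library without UV and 4 to 5 without the third of these, the first or second at 1 h, or the first or the third at 3 h.

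The 4 largest rises in WT cells were at IRX6, GSX1, IRX5 and SIX2. IRX6 had 1.09, 0.197 and 1.21 kb without UV, 1.77, 1.74 and 1.45 kb at 1 h and 1.73, 1.12 and 1.77 kb at 3 h, a change of 0.761 ± 0.274 kb (SE, limma adjusted p = 0.0472). The second library without UV was low, and the second library at 3 h lay below the third without UV, so the groups overlapped. GSX1, a factor of the ventral forebrain, had 1.48, 1.84 and 1.93 kb without UV, 3.16, 2.49 and 2.37 kb at 1 h and 2.65, 2.17 and 1.88 kb at 3 h, and rose by 0.705 ± 0.187 kb (adjusted p = 0.0151). The third library at 3 h lay within the range without UV. IRX5 rose by 0.634 ± 0.231 kb (adjusted p = 0.0492) from 1.75, 0.847 and 1.22 kb to 2.291, 2.312 and 1.864 kb at 1 h and 2.10, 1.51 and 1.35 kb at 3 h, with overlap at 3 h. SIX2, which keeps kidney progenitors undifferentiated, had 1.875, 1.495 and 1.890 kb without UV, 2.84, 2.61 and 2.56 kb at 1 h and 2.05, 1.99 and 2.07 kb at 3 h. All 6 irradiated values were above all 3 without UV, and the change was 0.6003 ± 0.200 kb (adjusted p = 0.0360). The other 10 that rose were LHX5, PITX3, SIX5, VAX1, LHX8, ISL2, OTX2, OTX1, VAX2 and PITX1, by 0.507 to 0.272 kb.

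In ASH1L-/- cells the largest rises were at OTX1, SIX2, EMX1 and SIX5. OTX1, a head gene, had 1.75, 1.49 and 1.56 kb without UV, 2.59, 2.34 and 1.94 kb at 1 h and 2.202, 2.135 and 2.164 kb at 3 h, a rise of 0.632 ± 0.114 kb (limma adjusted p = 0.00291) with no overlap. SIX2 had 1.74, 1.59 and 1.60 kb without UV, 3.27, 2.58 and 1.88 kb at 1 h and 2.01, 1.81 and 1.96 kb at 3 h, and rose by 0.611 ± 0.200 kb (adjusted p = 0.0375), close to its change in WT cells. EMX1, a gene of the cerebral cortex, rose by 0.592 ± 0.108 kb (adjusted p = 0.00302), from 1.86, 1.84 and 1.71 kb to 2.61, 2.45 and 1.97 kb at 1 h and 2.48, 2.41 and 2.43 kb at 3 h. In WT cells EMX1 had 2.55, 2.38 and 2.61 kb without UV and 2.48 to 2.71 kb after UV. Of the 6 irradiated ASH1L-/- values 5 lay within the range of all WT libraries, 2.38 to 2.71 kb. Only 2.61 and 2.48 kb lay within the range of the irradiated WT libraries. SIX5, which lies beside the myotonic dystrophy gene DMPK, rose by 0.373 ± 0.114 kb (adjusted p = 0.0287). PITX1, BARX2, LHX4, IRX3 and LHX8 were the other 5.

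Whether the UV change differed between the genotypes was tested as the difference of both changes. At promoters limma called none of the 31 genes, 6 had an unadjusted p under 0.05, and over all promoters 0.19% were higher and 0.861% lower in ASH1L-/- cells. The 2 smallest p belonged to EMX1 and OTX2. At EMX1 the change was 0.575 ± 0.152 kb larger in ASH1L-/- cells (limma adjusted p = 0.0957). At OTX2, a regulator of the forebrain and retina, the change was smaller by 0.353 ± 0.097 kb (estimate -0.353). OTX2 passed the filter through irradiated WT libraries alone and could differ in this direction only, so that its estimate is a description. OTX2 had no promoter peak in the 3 WT libraries without UV, 0.457, 0.549 and 0.526 kb at 1 h and 0.079, 0.101 and 0.406 kb at 3 h, and none in any of the 9 ASH1L-/- libraries. Its cover at 3 h was lower than at 1 h in every WT library, but the change between the times did not pass (-0.315 ± 0.079 kb, adjusted p = 0.146). Between 1 h and 3 h limma called no homeobox promoter in WT cells (4 with an unadjusted p under 0.05) against 0.19% of all promoters that fell. At 1 promoter cover fell in ASH1L-/- cells, against 0.753% of all, at SIX5, from 3.64, 3.59 and 3.21 kb at 1 h to 3.05, 2.73 and 2.80 kb at 3 h (-0.620 ± 0.131 kb, adjusted p = 0.0397).

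**Figure D4:**
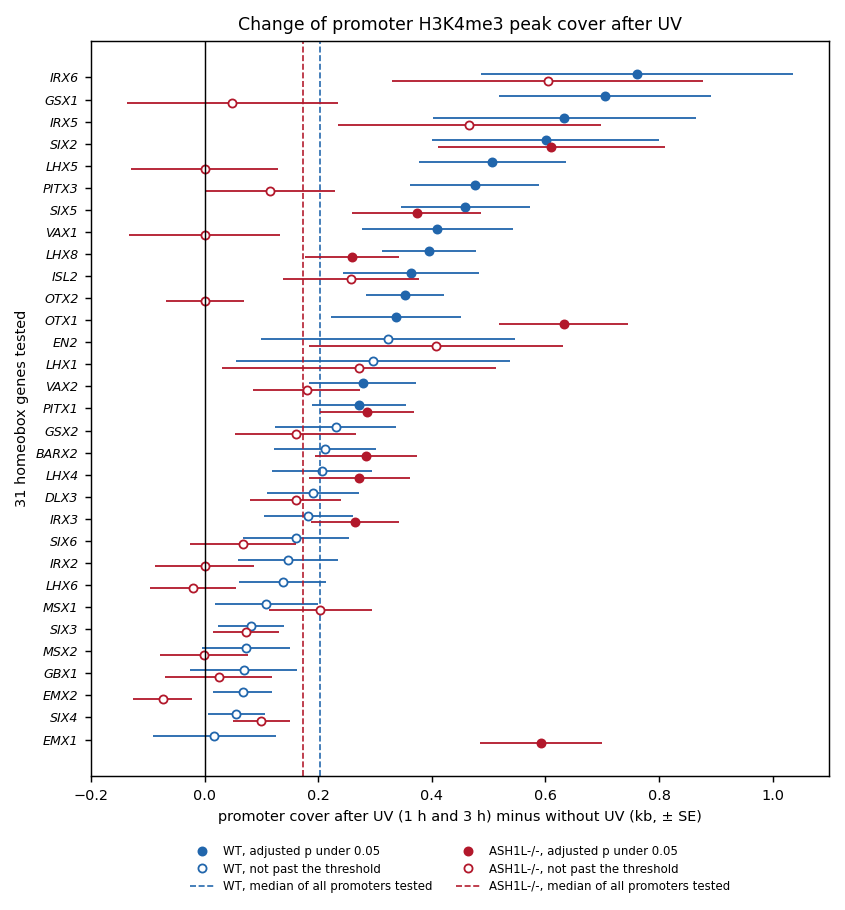
Promoter cover after UV minus without UV in kb, with standard errors, for the 31 homeobox genes tested in WT (blue) and ASH1L-/- cells (red), filled where the limma adjusted p was under 0.05. Dashed lines mark the median of all promoters, 0.203 kb in WT and 0.174 kb in ASH1L-/- cells. LHX5, VAX1 and OTX2 have no promoter peak in ASH1L-/- cells and sit at 0 there, and EMX1 rose in ASH1L-/- cells by 0.592 kb.

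Dividing each library by its total cover changed the sign of the median change. The WT totals were 70.1 to 93.3 Mb without UV and 97.2 to 132 Mb after UV. A WT promoter of unchanged covered length therefore falls on this scale by construction. On that scale the median change in WT cells was -0.615 kb over all promoters and -0.289 kb over the homeobox promoters, and 3 of the 31 rose while 8 fell, beside 2.64% and 52.3% of all promoters. The 3 that rose on both scales were LHX5, VAX1 and OTX2, by 0.298, 0.351 and 0.305 kb. VAX1 and OTX2 had no peak without UV, so that they could not fall, and passed the filter through irradiated WT libraries alone. The 8 that fell were EMX1, EMX2, SIX4, IRX3, MSX1, MSX2, PITX1 and GBX1, for which the unscaled changes were above 0. In ASH1L-/- cells no homeobox promoter was called on the scaled values, with 0 at an unadjusted p under 0.05, beside 0.726% of all that rose (medians -0.003 kb and, over all promoters, -0.140 kb). Among the others that rose in covered length, IRX6 (0.366 kb), PITX3 (0.172 kb), IRX5 (0.080 kb) and GSX1 (0.020 kb) kept values above 0 on this scale and did not pass, and the rest were below 0.

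The genotypes were compared without UV and after UV. Without UV 1 of 31 homeobox promoters was higher in ASH1L-/- cells and 2 were lower, against 2.86% and 1.11% of all promoters. EMX1 and OTX1 were the lower ones, by 0.716 ± 0.124 kb at EMX1 (estimate -0.716, limma adjusted p = 0.00489) and by 0.542 ± 0.132 kb at OTX1 (-0.542, adjusted p = 0.0314). The WT values of OTX1 were 2.17, 1.99 and 2.27 kb, and neither gene overlapped between the genotypes. SIX5 was higher, with 2.89, 2.64 and 2.86 kb in ASH1L-/- and 2.08, 2.10 and 2.44 kb in WT cells (0.591 ± 0.131 kb, adjusted p = 0.0198). SIX5 no longer passed without the first or second WT library or the first or the third ASH1L-/- library, and OTX1 without the first or the third WT library or the second or the third ASH1L-/- library. The lower values without UV and the rises after UV of EMX1 and OTX1 in ASH1L-/- cells share the 3 ASH1L-/- libraries without UV. After UV 7 of 31 (22.6%) were lower, beside 9.14% of all promoters, and 1 was higher, SIX5 again, against 10.7% of all. The lower genes were LHX5, IRX6, GSX1, VAX1, OTX2, IRX2 and EMX2. Their count ranged from 3 (without the second ASH1L-/- library at 3 h, or the first WT library at 3 h) to 9 (without the first ASH1L-/- library at 1 h). Of these, 4, namely LHX5, VAX1, OTX2 and IRX2, had no peak in any ASH1L-/- library and passed the filter through WT libraries alone, so that they could differ in this direction only. Among promoters with a peak in both genotypes, a restriction chosen after seeing the data, 3 of 27 were lower (IRX6, GSX1 and EMX2), beside 8.38% of all. On the scaled length 3 of 31 were lower, LHX5, VAX1 and OTX2, beside 3.23% of all, and 3 were higher, SIX5, ISL2 and EN2, beside 26.1%. The median then went from -0.101 to 0.270 kb, EMX2 from -0.136 to 0.377 kb, and IRX6, GSX1 and IRX2 no longer passed.

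LHX5, a LIM factor of the hypothalamus and hippocampus, had the largest difference. It had 0.475, 0 and 0.786 kb in WT cells without UV, 0.881, 0.798 and 0.694 kb at 1 h and 1.27, 0.797 and 1.12 kb at 3 h, and 0 kb in all 9 ASH1L-/- libraries. After UV the difference was -0.927 ± 0.106 kb, given as a description since the gene entered the fit through WT libraries alone, and the highest enrichment in WT libraries was 4.96. The flank of LHX5 was marked in all 18 libraries, with 3.77 to 5.60 kb in ASH1L-/- cells and 3.10 to 5.92 kb in WT cells, while its start was empty in ASH1L-/- cells. IRX6 was lower after UV by 0.706 ± 0.224 kb (estimate -0.706, adjusted p = 0.0370), with 0.774 to 1.47 kb in 5 irradiated ASH1L-/- libraries and 0 kb in the third at 1 h against 1.12 to 1.77 kb in WT cells. GSX1 was lower by 0.505 ± 0.152 kb (-0.505, adjusted p = 0.0300), with 1.58 to 2.38 kb against 1.88 to 3.16 kb, which overlap. VAX1, an optic nerve gene, had 0.494, 0.658 and 0.485 kb in WT cells at 1 h and 0.823 kb in the first WT library at 3 h, and nothing elsewhere (-0.410 ± 0.108 kb). The differences of OTX2 (-0.353 ± 0.056 kb) and IRX2 (-0.223 ± 0.071 kb), like that of VAX1, are descriptions for the same reason. EMX2 was lower by 0.136 ± 0.043 kb (-0.136, adjusted p = 0.0368). With peaks of at least 5-fold enrichment it was also lower (-0.603 kb) but did not pass. On the scaled length it was higher (0.377 kb). SIX5 was higher by 0.505 ± 0.093 kb after UV (adjusted p = 0.00164). In the window of plus and minus 1 kb the difference was 0.0477 kb and did not pass. The highest enrichment over input at the SIX5 promoter went the other way. Its group means in ASH1L-/- and WT cells were 5.577 and 7.099 without UV. They were 9.162 and 12.96 at 1 h, and 4.897 and 7.956 at 3 h. The genotypes overlapped at 1 h only, and the difference in enrichment was not tested. It was not particular to SIX5: over all genes, too, promoter peaks of at least 5-fold were fewer in ASH1L-/- cells without UV and at 3 h.

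**Figure D5:**
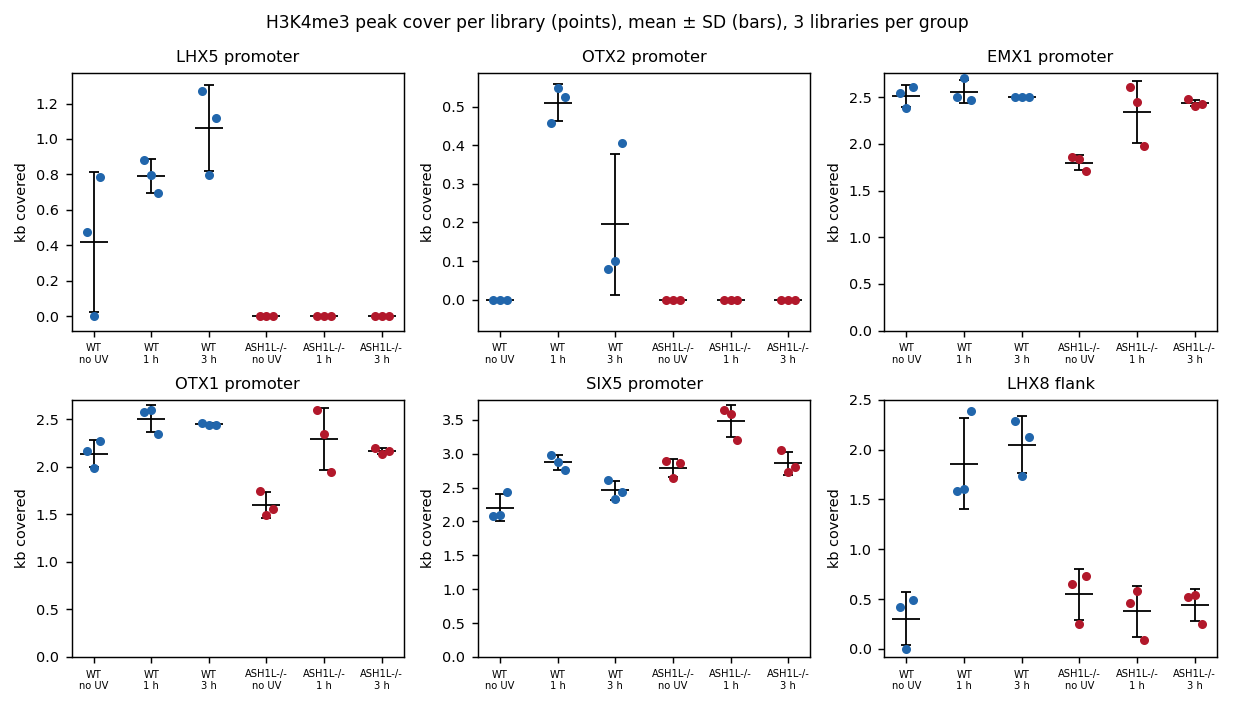
Covered length in kb for each library (points) with mean ± SD (bars) in the 6 groups, 3 libraries each, for 5 promoters and the flank of LHX8. LHX5 is at 0 kb in all 9 ASH1L-/- libraries, OTX2 is above 0 in the 6 irradiated WT libraries alone, EMX1 and OTX1 are low in ASH1L-/- cells without UV, SIX5 is higher in ASH1L-/- cells, and the LHX8 flank rises in WT cells to 1.58 to 2.38 kb.

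A promoter peak in at least 2 WT libraries and in no ASH1L-/- library was found at 5 of the 44 genes, LHX5, OTX2, IRX2, IRX4 and VAX1, against 1.67% of all genes. The reverse, at least 2 ASH1L-/- libraries and no WT library, was found at 0 of 44, against 0.616% of all genes. The highest enrichment of the peaks was 2.51 at IRX2, 2.69 at OTX2, 2.74 at VAX1, 4.96 at LHX5 and 8.06 at IRX4. With peaks of at least 5-fold enrichment alone none of the 5 met the rule and PITX3 did, and in the window of plus and minus 1 kb LHX5 and VAX1 met it. IRX4 would leave the class with its other annotated start, which lies in the core region that was covered in all 18 libraries.

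XPC peak cover gives a second readout of the same genomic regions in both lines. In bins of 5 Mb, the log2 ratio of the share of XPC cover in ASH1L-/- cells over that in WT cells, both without UV, was 1.23 at SIX5, -1.41 at OTX2, -0.85 at IRX2 and IRX4, -0.338 at IRX6 and -0.302 at GSX1. It was 0.066 at LHX5, -0.173 at VAX1 and EMX2, 0.025 at EMX1, 0.095 at OTX1 and 0.214 at LHX8. Over 549 bins 9.11% were above 0.5 and 17.1% below -0.5. The ratio had the same sign as the difference in H3K4me3 cover at SIX5, OTX2, IRX2, IRX4, IRX6, GSX1, VAX1 and EMX2. It had the opposite sign at LHX5, EMX1 and OTX1, and at LHX8, where the flank had a smaller UV change in ASH1L-/- cells. At LHX5, EMX1 and OTX1 the bins were close to equal. The part of the ratio in these results was not tested. SIX4 and SIX6 lay in a bin with a ratio of -3.52, with promoter H3K4me3 in ASH1L-/- cells of 2.32 to 2.54 kb and 1.14 to 1.47 kb, and in WT cells of 2.42 to 2.55 kb and 1.02 to 1.496 kb.

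Flanks were compared in the same way, and 38 of the 44 passed the filter. In WT cells 12 of 38 flanks rose after UV (31.6%) and none fell, against 20.3% of the 14657 flanks tested that rose, and in ASH1L-/- cells 2 rose (5.26%) against 11.8%. The medians were 0.436 kb at homeobox flanks and 0.305 kb over all flanks in WT cells, and 0.251 and 0.233 kb in ASH1L-/- cells. The WT count was 3 without the second WT library without UV, 4 without the first and 19 without the third. The 4 largest rises were at LHX5, LHX8, BARX1 and IRX1. The LHX5 flank had 3.66, 3.10 and 4.39 kb without UV, 5.92, 5.22 and 5.34 kb at 1 h and 5.59, 5.36 and 5.17 kb at 3 h (1.72 ± 0.332 kb, limma adjusted p = 0.00463). BARX1 rose by 1.09 ± 0.307 kb (adjusted p = 0.0249) from 1.71, 0.767 and 2.19 kb to 2.22 to 2.96 kb, and IRX1 by 1.03 ± 0.307 kb (adjusted p = 0.0310) from 1.79, 1.94 and 1.66 kb to 1.74 to 4.53 kb. BARX1 did not overlap between the groups, and IRX1 overlapped at 3 h. PITX3, EN1, OTX2, IRX4, MSX1, ISL1, IRX2 and EMX1 rose by 0.909 to 0.128 kb, and the PITX3 flank includes the start of GBF1.

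LHX8, a factor of cholinergic neurons and tooth development, was the 1 homeobox flank whose UV change differed between the genotypes, against 2.35% of all flanks with a smaller change in ASH1L-/- cells. In WT cells the flank had 0.417, 0 and 0.490 kb without UV, 1.58, 1.60 and 2.38 kb at 1 h and 2.285, 1.736 and 2.130 kb at 3 h, a rise of 1.65 ± 0.202 kb (limma adjusted p = 0.000456). The ASH1L-/- libraries had 0.651, 0.252 and 0.735 kb without UV, 0.461, 0.580 and 0.089 kb at 1 h and 0.523, 0.545 and 0.252 kb at 3 h. Every irradiated WT value was above every other value, and the ASH1L-/- groups overlapped. The difference of the changes was -1.79 ± 0.286 kb (adjusted p = 0.00528), and on the scaled values -1.497 ± 0.246 kb (adjusted p = 0.00323). It did not pass with an equal number of peaks per library (-1.02 kb) or with peaks of at least 5-fold enrichment (-0.2615 kb). The LHX8 promoter rose in both genotypes, by 0.395 ± 0.083 kb in WT (limma adjusted p = 0.00552) and 0.259 ± 0.083 kb in ASH1L-/- cells (limma adjusted p = 0.0350). Its cover ran on into the flank. As means of the 18 libraries, the fraction of covered bases was 0.978 in the bin centred at 1750 bp and 0.811 at 2250 bp. Upstream, flank cover was highest in the bin centred at -3750 bp, with 0.300. In which part of the flank the change lay was not tested.

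In ASH1L-/- cells the flanks that rose after UV were those of DLX5 and DLX6, whose windows overlap. DLX5 had 4.01, 3.54 and 3.99 kb without UV and 4.17 to 5.00 kb after UV (0.791 ± 0.214 kb, limma adjusted p = 0.0288). DLX6 had 1.95, 2.02 and 1.60 kb without UV and 1.92 to 3.21 kb after UV (0.718 ± 0.224 kb, adjusted p = 0.0494). DLX5 did not overlap between the groups and DLX6 did. The count of 2 became 0 without any 1 of the ASH1L-/- libraries without UV or the second at 1 h, and 7 without the third at 1 h. Without UV limma called no homeobox flank between the genotypes, 7 had an unadjusted p under 0.05, and 1.21% of all flanks were higher and 0.157% lower in ASH1L-/- cells. The 2 smallest p were at DLX2, with 4.27, 3.94 and 3.95 kb in ASH1L-/- and 4.92, 4.82 and 5.45 kb in WT cells (-1.01 ± 0.253 kb, adjusted p = 0.0654), and at EN2, with 0.540, 0.575 and 0.469 kb against 1.44, 0.838 and 1.76 kb (-0.819 ± 0.221 kb, adjusted p = 0.0863). Neither gene overlapped between the genotypes.

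XPC, the damage sensor of global-genome excision repair, had peaks over a mean of 1.14 kb of the 4 kb promoter window at the homeobox genes. Over all genes the mean was 0.937 kb, both as the mean of 19 lists. Of these lists 17 end at 500000 peaks. The paper kept its broad XPC peaks for a check of replicability and based its XPC results on the continuous signal, which was not used here. The values varied widely within groups: at LHX5 the 4 WT lists without UV gave 1.74, 0.812, 1.54 and 0.035 kb. By limma no homeobox promoter changed in XPC cover after UV in WT cells, after UV in ASH1L-/- cells or between the genotypes without UV, with 1, 0 and 1 of 44 at an unadjusted p under 0.05. Over the 18991 promoters tested none was called in any of these comparisons. A difference between groups was not detectable at this spread.

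Related genes give the setting. Of 51 other homeobox genes 25 had a promoter peak in all libraries, 17 in some and 9 in none, a division like that of the 44. Of 28 partners of homeodomain proteins 24 were marked in all libraries, of 29 genes of patterning signals 22, and of 34 Polycomb and Trithorax genes all 34. After UV in WT cells promoters rose at 15 of 41 other homeobox genes, 10 of 27 partners, 8 of 25 signal genes and 11 of 34 Polycomb and Trithorax genes, beside the 30.5% of all promoters. Between the genotypes after UV 10 of 41, 5 of 27, 4 of 25 and 3 of 34 were lower in ASH1L-/- cells, beside 9.14% of all. Among the other homeobox genes ONECUT1, marked in all libraries, was lower by 0.838 ± 0.151 kb (-0.838, limma adjusted p = 0.00148). TLX3 (-1.08 kb) and MEOX2 (-0.742 kb), with peaks in 7 and 6 WT libraries and in no ASH1L-/- library, passed the filter through WT libraries alone. Among the partners MEIS3, a TALE cofactor (-1.06 ± 0.176 kb, adjusted p = 0.000798), and TLE4, a corepressor (-1.05 ± 0.109 kb), were lower by most. TLE4 had peaks in 8 WT and 2 ASH1L-/- libraries and passed the filter of at least 3 libraries through WT libraries. Its difference is therefore a description. EYA2, a transcriptional coactivator, was lower in ASH1L-/- cells without UV (-0.408 ± 0.085 kb, adjusted p = 0.0143) and rose after UV there (0.479 ± 0.074 kb, adjusted p = 0.00122), and both comparisons share the ASH1L-/- libraries without UV. Without UV 1 of 12 mesenchymal and osteoblast markers tested was lower in ASH1L-/- cells, CDH11, a cadherin of osteoblasts (-1.54 ± 0.212 kb, limma adjusted p = 0.000759). The median of the 12 was 0.036 kb. CDH11 rose after UV in ASH1L-/- cells (1.41 ± 0.183 kb, limma adjusted p = 0.000421). Its change was 1.17 ± 0.259 kb larger than in WT cells (limma adjusted p = 0.0446). These comparisons share the ASH1L-/- libraries without UV. After UV 0 of the 12 were lower in ASH1L-/- cells. Without UV 3 of 6 epithelial markers were lower, and 2 of 11 neuronal markers were higher (ELAVL4 and GAP43). Of all promoters 1.11% were lower and 2.86% higher.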

How the data were processed

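H3K4me3 ChIP-seq peak lists of 18 libraries and XPC ChIP-seq peak lists of 19 libraries were analysed, from 61 samples listed; input and XPC-knockout samples served the authors as controls. Per the labels and the study's methods, reads were trimmed (Trim Galore 0.6.5), aligned to hg38 with BWA 0.7.17-r1188 and peaks were called in each library with MACS2 2.2.7.1. The deposited files give peak positions with the authors' fold enrichment over control, and −log10 p and −log10 q values as MACS2 wrote them. Of the XPC lists 17 of 19 end at 500000 peaks and 2 lack chromosome X. Counts and depth are not in these lists, so no counting interval was given.

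Start sites of 19970 protein-coding genes (GENCODE 44; 19016 MANE, 954 canonical) defined promoters and flanks. Covered length was fitted with limma 3.58.1 in R 4.3.3 (group means, 1 fit per antibody, trended and robust variance), for windows covered in at least 3 libraries, with Benjamini-Hochberg adjustment over all windows, and the code was tested on simulated data. Other steps used Python 3.11.15. The labels call the replicates biological and the paper describes independent experiments, and p-values measure the spread between these samples. The members, gene lists and tests were chosen with earlier results of these data known. Values in each library were given for the 4 longest and the shortest marked promoters, for up to 4 genes of largest rise and fall that passed in each comparison, or otherwise for the 2 of smallest p, and for at most 3 genes per comparison from other lists. Alternatives were peaks of at least 5-fold enrichment, −log10 q of at least 1.3, an equal number of peaks per library, a narrower window, scaled length, no filter, a replicate block and each library left out.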

Additional observations from a re-analysis of the deposited data

Results flagged for a closer look

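The UV change of H3K4me3 cover in the LHX8 flank differed between the genotypes by the test of the difference itself, with -1.788 kb (change in ASH1L-/- minus change in WT, limma adjusted p = 0.00528). All 6 irradiated WT libraries were above all 3 WT libraries without UV, and the ASH1L-/- groups overlapped.

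In XPC cover of the OTX2 promoter 1 of the 4 WT lists without UV stood far from the others, with 3.17 kb beside 0.331, 0 and 0.125 kb. Its gap to the nearest list was 0.896 of the range, above Dixon's critical value for 4 samples. Of 6 genes examined in this way 1 stood out, and chance alone marks about 1 in 20 groups.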

How the results depend on the processing

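Of 756 alternative values for 31 named gene results, 568 kept their direction and side of the threshold, 182 no longer passed and 6 changed sign. On the scaled length these were SIX2 (-0.095 kb) and LHX8 (-0.273 kb) after UV in WT cells, SIX5 after UV in ASH1L-/- cells (-0.0295 kb) and EMX2 between the genotypes after UV (0.377 kb), and with peaks of at least 5-fold enrichment SIX5 between the genotypes without UV (-0.0353 kb) and after UV (-0.0793 kb). The causes were not tested.

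Counts of homeobox promoters that rose in WT cells after UV were 9 with an equal number of peaks, 3 with 5-fold peaks, 8 in the narrower window and 3 on the scaled length, where 8 fell. In ASH1L-/- cells 3 rose with 5-fold peaks and 0 on the scaled length. For the difference of the UV changes 1 was lower with 5-fold peaks. Without UV 0 were higher in ASH1L-/- cells and 1 lower with 5-fold peaks, and likewise 0 and 1 on the scaled length. After UV 0 were higher with 5-fold peaks or in the narrower window and 3 on the scaled length, and 3 were lower with equal peaks, in the narrower window and on the scaled length. Between 1 h and 3 h 2 fell in WT cells with 5-fold peaks, and in ASH1L-/- cells 4 with 5-fold peaks, 2 in the narrower window and 0 on the scaled length. Of the flanks 7 rose in WT cells with equal peaks and 1 on the scaled length. ASH1L-/- flanks rose at 4 with equal peaks, 4 with 5-fold peaks, 1 without the filter and 0 in the narrower window or on the scaled length. The difference of the UV changes was lower at 2 flanks with −log10 q of at least 1.3, 0 with equal peaks and 2 with 5-fold peaks. Without UV 1 flank was higher in the narrower window, and 1 was lower with equal peaks and 1 on the scaled length. Among promoters with a peak in both genotypes 3 were lower after UV. Genes marked in WT cells alone numbered 1 with 5-fold peaks (PITX3, none of the 5) and 2 in the narrower window, and genes with an empty promoter and a marked flank 2 with 5-fold peaks. The presence rules and their alternatives were chosen after seeing the data.

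With each library left out in turn, promoter counts ranged from 2 to 17 (WT, UV, higher), 2 to 10 (ASH1L-/-, UV, higher), 0 to 1 in each direction (difference), 0 to 1 higher and 1 to 3 lower (genotypes without UV), 1 higher and 3 to 9 lower (genotypes after UV), 0 to 1 and 0 to 2 lower at 3 h (WT and ASH1L-/-). Flank counts ranged from 3 to 19 (WT, UV), 0 to 7 (ASH1L-/-, UV), 1 to 2 (difference, lower) and 0 to 1 (genotypes without UV, lower), and genes marked in WT cells alone from 4 to 5.

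With the replicate number as a block, promoter counts were 14, 9, 1 and 2, and 1 and 7 in the same order, and flank counts 14 in WT and 3 in ASH1L-/- cells, and no named gene changed its call. Nothing in the labels says that a number marks a shared batch. Deviations of same-numbered H3K4me3 libraries correlated by -0.111 to 0.294 (median 0.0953), over 0.1 in 18 of 45 pairs, against 3 of 90 differently numbered pairs (median -0.0360). The main fit treated the samples as unpaired, although same-numbered libraries correlated more than the others in the median. The counts with the block are given above for that reason. Read depth is not part of the peak lists. The paper's reporting summary gives read totals for each library, but they were not used here. The part of depth in the covered lengths was therefore not tested.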
